A study of Mus musculus with 18 samples.

Results

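The genes described here are 34 markers of tissue macrophages, matched by symbol in the deposited tables of gene expression in liver, brain and testis of Pcgf6 knockout and wild type mice. They matched 35 entries of the 52636 genes listed, because Itgam occurs under 2 gene IDs. By role they fall into 5 Kupffer cell genes, 5 microglia genes, 5 genes of antigen presentation on MHC class II, the 3 chains of complement C1q, 9 genes shared by most macrophages, 5 pan-leukocyte genes and signalling adaptors, and the 2 subunits of calprotectin. Poly-A RNA was sequenced from whole tissue of adult male C57BL/6 mice aged 8 weeks. Each tissue had 3 wild type (WT) and 3 Pcgf6 knockout (KO) libraries, 18 in all, and the labels number them WT 1 to 3 and KO 4 to 6 in every tissue. The labels do not describe the knockout construct or the cells in which the gene is lost, and they do not say that the libraries came from separate animals, so p-values measure the spread between these samples only. No treatment is named for either genotype.

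Macrophages settle in most organs and take on a program set by the organ. Kupffer cells line the sinusoids of the liver and clear particles and aged red cells from the blood, while microglia are the resident macrophages of the brain and are held in a quiet state by signals from neurons. Both depend on the receptor Csf1r, and both share lysosomal, complement and Fc receptor genes. MHC class II proteins display peptides to CD4 T cells; their genes are switched on together by the coactivator CIITA through a conserved promoter module. Pcgf6 is a subunit of a Polycomb repressive complex, best known for silencing germ line genes.

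Library depth lay between 18990130 and 23529098 reads, recovered from the deposited values. Expression is given in FPKM, that is, fragments divided by the length of the gene and by a library size, so that levels of different genes can be compared. The library sizes used for scaling were not plain totals, and comparisons between tissues depend on them, as given beside those results. Pcgf6 itself stood at 4.08 to 5.66 FPKM in WT liver and 1.44 to 2.66 in KO liver, at 4.58 to 5.29 and 3.30 to 4.42 in brain, and at 19.9 to 22.3 and 9.58 to 10.6 in testis. The KO libraries lay below all WT libraries in each tissue, and reads of Pcgf6 remained in every one. Summed hepatocyte markers reached 48328 to 57232 FPKM in liver, summed neuron markers 503 to 560 in brain, and summed male germ cell markers 13781 to 22834 in testis. In whole tissue, fewer cells of a type and less RNA per cell cannot be told apart.

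Among the genes listed here, liver and brain each showed the macrophage genes of their own resident cell, and testis showed neither set in full. Clec4f, a C-type lectin made by Kupffer cells (chromosome 6, 83644542 to 83656187, mm10), stood at 41.3, 55.8 and 80.5 FPKM in WT liver and at 46.7, 66.7 and 76.6 in KO liver. It had 3 reads in the 3 WT brain libraries together and 2 in the 3 WT testis libraries, against 6428 in WT liver. Cd5l, a secreted inhibitor of macrophage apoptosis, stood at 32.1, 50.4 and 93.1 FPKM in WT liver and had 3 reads in WT brain. Unlike Clec4f it was present in testis, at 3.92, 3.58 and 2.05 FPKM in WT, and WT liver held 18.4 times the WT testis mean. Vsig4, a complement receptor, stood at 12.5, 21.0 and 25.8 FPKM in WT liver and at 0.336, 0.340 and 0.276 in WT testis, a ratio of 62.3. The scavenger receptor Marco and the phosphatidylserine receptor Timd4 were lower in liver, with WT means of 5.72 and 2.99 FPKM.

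The microglia genes ran the other way. Tmem119, a membrane protein specific to resident microglia in brain (chromosome 5, 113793729 to 113800516), stood at 8.12, 8.10 and 7.45 FPKM in WT brain and at 0.684, 0.565 and 0.899 in WT liver, a ratio of 11.0. P2ry12, the ADP receptor with which microglia sense injury, stood at 7.2, 7.09 and 6.89 FPKM in WT brain and 0.178, 1.08 and 0.712 in WT liver, a ratio of 10.8. Cx3cr1, the receptor for the neuronal chemokine fractalkine, stood at 5.40, 5.95 and 6.17 FPKM in WT brain and 0.619, 0.672 and 0.918 in WT testis. In the liver libraries Cx3cr1 held 14 reads over the WT and 19 over the KO, too few for the test. Siglech and the lipid receptor Trem2 were the weaker members, with WT brain means of 2.49 and 1.84 FPKM. The gene model of Cx3cr1 overlaps 9 others, Csrnp1, Gorasp1 and Xirp1 on the same strand, and that of P2ry12 overlaps Med12l on the opposite strand. Csf1r, Ctss, Ptprc, Cd74 and Cd52 also overlap other models. Whether counting used strand is not given in the sources used here, so reads at such overlaps are uncertain.

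The MHC class II genes were highest in liver, intermediate in testis and lowest in brain, whereas Ctss, the protease that trims their chaperone, was lowest in testis. H2-Aa, the class II alpha chain, stood at 9.25, 11.9 and 13.2 FPKM in WT liver, 3.09, 2.44 and 4.50 in WT testis and 0.788, 0.570 and 1.29 in WT brain. The ranges of the 3 tissues did not overlap. Cd74, the invariant chain that guides class II proteins through the cell, was 18.4 times as high in WT liver as in WT brain, and H2-Aa 13 times. Ctss, the cathepsin that removes the invariant chain, stood at 17.2, 27.3 and 32.8 FPKM in WT liver, at 24.0, 25.5 and 25.0 in WT brain and at 2.33, 2.72 and 5.30 in WT testis. The chains of C1q, which start the classical complement pathway, were high in both: C1qa had WT means of 74.2 FPKM in liver, 33.4 in brain and 13.7 in testis. Lyz2, the lysozyme of myeloid cells, had WT means of 59.7, 4.95 and 19.2 FPKM in the same order.

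Aif1 stood apart from the other macrophage genes. It encodes IBA1, a calcium-binding protein used to stain microglia and macrophages (chromosome 17, 35170991 to 35176068). Its level was 166, 166 and 148 FPKM in WT testis, against 1.77, 2.65 and 5.30 in WT liver and 2.00, 1.39 and 1.46 in WT brain. WT testis thus held 49.4 times the liver mean and 99.0 times the brain mean. The growth factor receptor Csf1r, which marks the same cells, ran the opposite way, with 2.48, 2.54 and 3.67 FPKM in WT testis, 7.01, 13 and 17.5 in WT liver and 10.6, 10.3 and 12.8 in WT brain. Adgre1, the F4/80 antigen, stood at 1.31, 1.65 and 1.35 FPKM in WT testis, 3.16, 7.80 and 10.4 in WT liver and 0.966, 1.15 and 1.06 in WT brain. Csf1r was thus lowest in testis, and Adgre1 in testis lay far below liver and somewhat above brain.

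**Figure D1:**
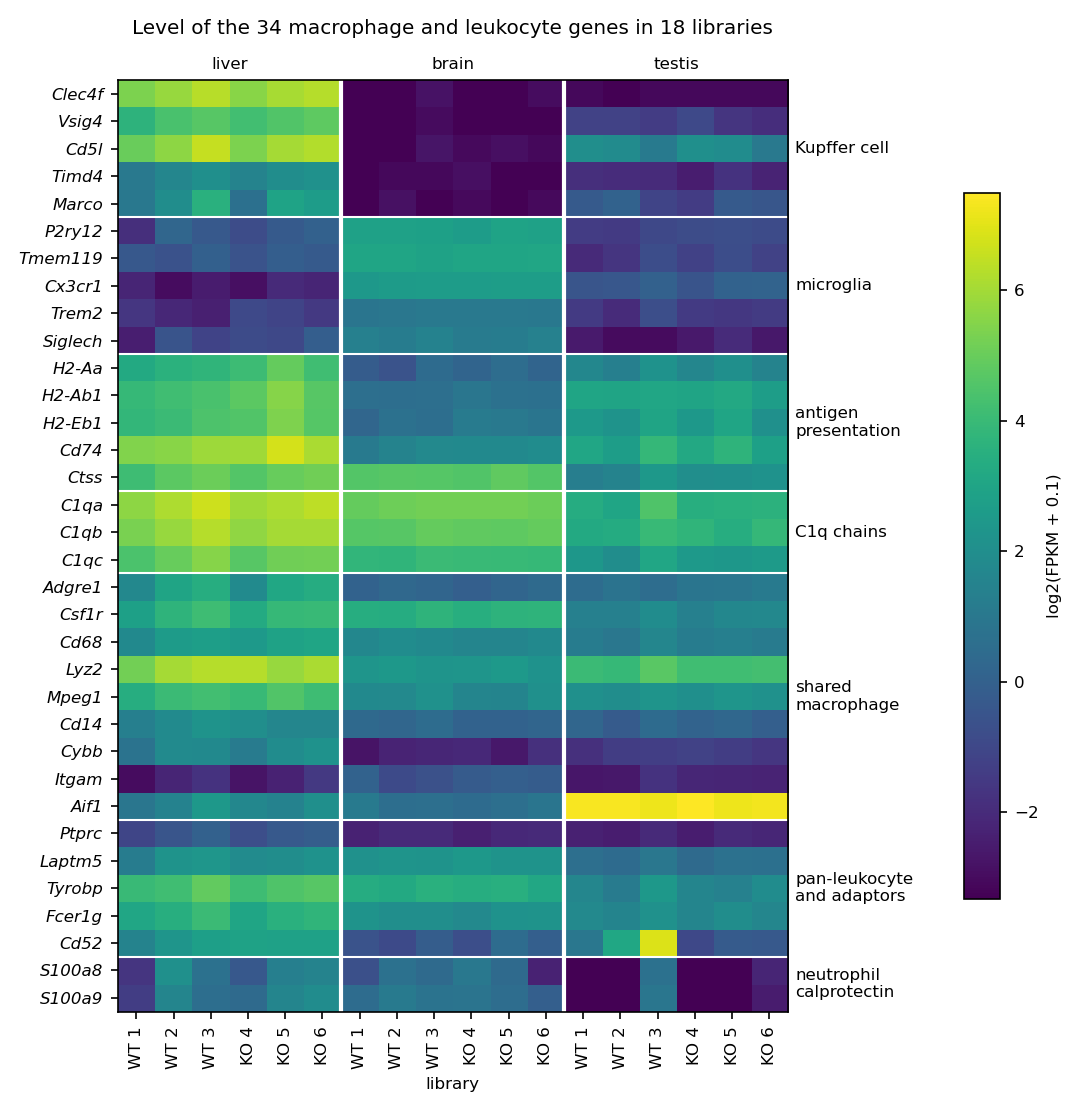
Expression of each macrophage gene in the 18 libraries, as colour on a scale of log2(FPKM + 0.1), with genes grouped by role and libraries by tissue and genotype. The Kupffer cell genes are brightest in liver, with Cd5l also visible in testis, the microglia genes are brightest in brain, and Aif1 is the brightest gene of its group in testis, at 147 to 179 FPKM.

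Tests of WT tissues used limma across all genes on log2(FPKM + 0.1), with Benjamini-Hochberg adjustment and a threshold of 0.05. Between WT brain and WT liver, 34 of the 35 entries were tested; 6 were higher in brain and 21 lower. Among all 18166 genes tested, 48.6% were higher in brain and 35.3% lower. All 5 microglia genes rose in brain, led by Cx3cr1 at a log2 difference of 5.13 ± 0.21 (SE, limma adjusted p = 6.16e-07, n = 3 per group) and followed by P2ry12 at 3.48 ± 0.50. Itgam, an integrin chain of myeloid cells, was the sixth gene higher in brain, at 1.80 ± 0.37. All 5 Kupffer genes were lower in brain, with differences from -8.98 for Clec4f to -4.74 for Timd4; with 1 to 3 reads for each in the WT brain libraries together, these sizes depend on the constant added before taking logs. With any liver library left out these 5 genes could not be tested, since only 2 libraries then reached the minimum of 10 reads.

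Of the antigen presentation genes, H2-Aa (-3.61 ± 0.28), H2-Ab1 (-3.54 ± 0.13), H2-Eb1 (-3.60 ± 0.19) and Cd74 (-4.17 ± 0.20) were lower in brain than in liver on the log2 scale. Ctss did not pass under this scaling, at -0.00 ± 0.22 with a limma adjusted p of 0.993. Liver WT 1 was the low library, and without it Ctss passed as lower in brain, at -0.27, and so did Csf1r, at -0.43. Scaling by plain library totals moved the median of all genes between these tissues from 0.32 to 1.07, and Ctss then passed the test as higher in brain, at 0.83, as did Laptm5, at 1.11. Under that scaling the C1q chains, Tyrobp and Fcer1g, which were lower in brain by 0.98 to 1.42 here, no longer passed, with differences of -0.60 to -0.14. The calls of all Kupffer, microglia and class II chain genes, and of Cd74, held under it.

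Between WT testis and WT liver, 32 entries were tested, and 2 were higher in testis where 57.8% of all genes were higher. These were Aif1, at 5.72 ± 0.36 (SE, limma adjusted p = 5.15e-06), and Cx3cr1, at 2.28 ± 0.24. A further 25 were lower in testis, against 29.9% of all genes. The models that overlap Cx3cr1 make its own share uncertain. Scaling by totals ended the calls of Tmem119, Cd68, Lyz2 and Laptm5 and added Trem2 as higher in testis, at 1.06; Tmem119 also lost its call without liver WT 3 or testis WT 1. Between WT testis and WT brain, 12 of 32 were higher in testis and 14 lower, against 50.1% and 35.9% of all genes. The class II genes rose in testis relative to brain, by 2.41 ± 0.09 for H2-Ab1 and 1.76 ± 0.31 for Cd74, as did Lyz2, by 1.89 ± 0.21. All 5 microglia genes were lower in testis, with Tmem119 at -4.48 ± 0.31 and Siglech at -4.22 ± 0.19. Adgre1 (0.40 ± 0.14) and Cd52 (4.21 ± 1.35), counted as higher in testis, and Cd68 (-0.53 ± 0.19), counted as lower, lost their calls without single libraries: brain WT 1, brain WT 3 or testis WT 2 for Adgre1, brain WT 2 for Cd52, and brain WT 2, brain WT 3, testis WT 1 or testis WT 2 for Cd68.

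No macrophage gene passed the test between KO and WT in any tissue. In liver 32 entries were tested, all but Cx3cr1 and both of Itgam, and 0 were called, where 0.0212% of all 14124 genes were called. In brain 29 were tested, all but the 5 Kupffer genes and the second Itgam entry, and 0 called, against 0.0837% of 17922 genes. In testis 29 were tested, all but Clec4f, Timd4, Siglech, S100a8, S100a9 and the second Itgam entry, and 0 called, against 0.00448% of 22341 genes. The test was limma on log2(FPKM + 0.1) within each tissue with Benjamini-Hochberg adjustment. With so few calls among all genes, a member count of 0 lies at the background. Without adjustment, a p under 0.05 was reached by 5 members in liver, 2 in brain and 3 in testis, against 4.38%, 4.46% and 4.13% of all genes. Members were called by none of the 13 alternative analyses of each comparison, which included limma voom on recovered reads. The median log2 difference of the tested members was 0.25 in liver, 0.04 in brain and 0.00 in testis, and that of all genes tested 0.00, 0.01 and 0.03.

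**Figure D2:**
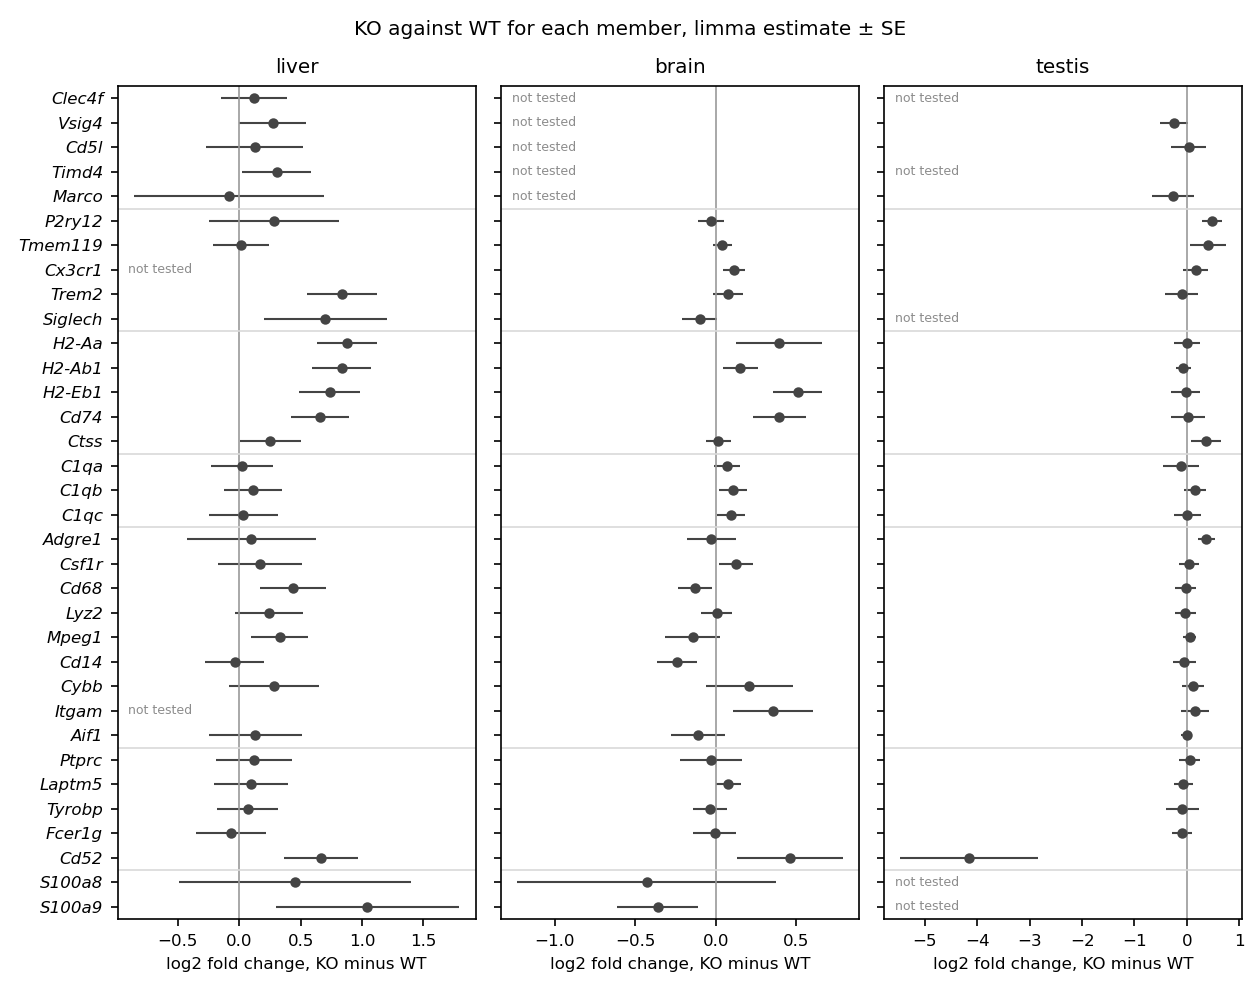
Log2 difference of KO from WT for each macrophage gene in liver, brain and testis on the log2(FPKM + 0.1) scale, with bars of 1 SE from limma and genes grouped by role; each panel has its own axis. H2-Aa, H2-Ab1, H2-Eb1 and Cd74 in liver lie at 0.66 to 0.88, Cd52 in testis lies far below 0 at -4.16, and none passed after adjustment.

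In liver the class II genes were higher in all 3 KO libraries than in any WT library, though none passed the test. H2-Aa (chromosome 17, 34282744 to 34287827) stood at 9.25, 11.9 and 13.2 FPKM in WT and at 16.8, 30.5 and 17.9 in KO, a log2 difference of 0.88 ± 0.24 (SE; unadjusted p = 0.00864, limma adjusted p = 0.808). H2-Ab1, the beta chain of the same molecule (chromosome 17, 34263209 to 34269418), stood at 14.9, 18.1 and 20.7 FPKM in WT and 27.0, 46.3 and 25.3 in KO, a difference of 0.83 ± 0.24 (limma adjusted p = 0.860). H2-Eb1, another class II beta chain gene, stood at 14.3, 16.6 and 21.9 FPKM in WT and 23.4, 41.7 and 24.7 in KO, a difference of 0.74 ± 0.25 (limma adjusted p = 1.00). In each of these genes KO 5 was the highest library, and KO 4 and KO 6 lay between it and the highest WT library. Cd74 stood at 42.7, 46.7 and 59.5 FPKM in WT and 60.9, 111 and 68.7 in KO, a difference of 0.66 ± 0.24 (limma adjusted p = 1.00). KO 4 exceeded WT 3 by little in Cd74. The 95% interval of the fold on this scale ran from 1.23 to 2.74 for H2-Aa and from 1.07 to 2.31 for Cd74. These intervals are not adjusted for the number of genes tested.

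Across all 32 members tested in liver, 6 had KO libraries entirely above WT and 0 entirely below, against 4.94% and 4.58% of all genes; 4 of the 6 were these class II genes, and the others were Trem2 and Cd52. The median over the 5 antigen presentation genes was 0.74, and without KO 5 it was 0.47. Ctss, the fifth gene of the group, overlapped between genotypes at 17.2, 27.3 and 32.8 FPKM in WT and 23.7, 31.2 and 35.4 in KO. Libraries of liver carrying the same number in the file headers deviated together, and a fit with that pairing as a block gave H2-Aa an adjusted p of 0.361 in limma and called no member. In that fit 9 members had an unadjusted p under 0.05 in place of 5, among them all 5 antigen presentation genes, while the count over all genes went from 618 to 1075. Ctss was higher in KO in 3 of 3 such pairs. What the header numbers mark is not stated, so these pairs are not known to be matched samples.

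Promoters of H2-Aa and H2-Eb1, which did not pass the test in liver, are shown as a description only. Whether the promoters bear on the liver values was not tested. No window was at hand for H2-Ab1 and Cd74, which were not searched. The 120 bases shown of each promoter hold the letters TGATTGG, in capitals. These letters are the inverted CCAAT box, known as the Y box, of the conserved class II promoter module. Sequences are from RefSeq on GRCm38.p6, the patched release of mm10, read 5′ to 3′ on the strand of the gene. H2-DMb1, a chain of the peptide loading factor from the same locus, was added after its values were seen. H2-DMb2, H2-Oa and H2-Ob of that locus also held the letters and are not shown.
H2-Aa, chr17:34287824-34287943, minus strand: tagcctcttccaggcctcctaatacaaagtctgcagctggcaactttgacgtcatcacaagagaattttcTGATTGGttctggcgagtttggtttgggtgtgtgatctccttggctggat
H2-Eb1, chr17:34305747-34305866, plus strand: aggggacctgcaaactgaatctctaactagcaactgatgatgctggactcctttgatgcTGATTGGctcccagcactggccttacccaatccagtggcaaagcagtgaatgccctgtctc
H2-DMb1, chr17:34153071-34153190, plus strand: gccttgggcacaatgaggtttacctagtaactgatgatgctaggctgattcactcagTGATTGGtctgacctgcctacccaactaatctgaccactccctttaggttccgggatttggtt

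The box begins 50 bases before the start of H2-Aa, 61 before that of H2-Eb1 and 63 before that of H2-DMb1. TGATTGG was searched on both strands in the 250 bases before each start. It was found in 2375 of 32851 promoter windows, or 7.23%. Of 8 class II genes looked up, H2-Ab1 among them, 7 had a window and 6 of these held the letters. The letters were searched because they belong to the known class II module, so these matches are no result about genotype. Among the macrophage genes 25 had a window, and of these H2-Aa, H2-Eb1 and Cd68 held it. A match describes these letters and not a bound factor.

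**Figure D3:**
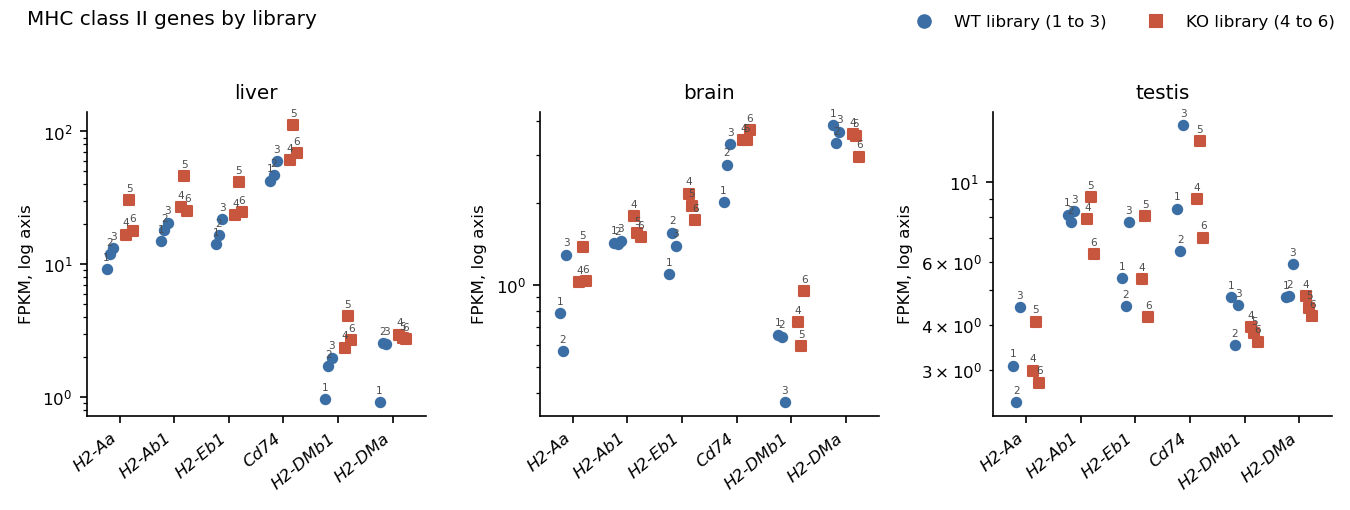
Class II genes in liver, brain and testis, in FPKM on log axes that differ between panels, with each point a numbered library and WT and KO in separate colours. In liver KO 5 is the highest library for H2-Aa, H2-Ab1, H2-Eb1 and Cd74, at 30.5 FPKM for H2-Aa and 111 for Cd74, and the KO points lie above the WT points, whereas in testis they are intermingled.

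The rest of the class II pathway differed less between genotypes. Of its 13 genes 11 were tested in liver, 0 passed, 10 lay higher in KO, and their median log2 difference was 0.14. Of all 14124 genes tested in liver, 7089 lay higher in KO. Ctsl, a lysosomal cathepsin and the most abundant of them, stood at 94.7, 88.0 and 85.2 FPKM in WT and 107, 95.2 and 93.3 in KO. H2-DMb1, named after its values were seen, stood at 0.964, 1.72 and 1.99 FPKM in WT and 2.36, 4.08 and 2.70 in KO, a difference of 0.95 ± 0.31 (limma unadjusted p = 0.0178). Its KO libraries lay above all WT libraries, with KO 5 highest as in H2-Aa. Ciita, the class II coactivator, stood at 0.201, 0.274 and 0.256 FPKM in WT and 0.182, 0.528 and 0.221 in KO, so only KO 5 was high.

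The class II genes were also set against the macrophage genes of each liver library. The sum of H2-Aa, H2-Ab1, H2-Eb1 and Cd74 was 81.0, 93.2 and 115 FPKM in WT and 128, 230 and 137 in KO. Divided by the summed Kupffer genes it was 0.903, 0.695 and 0.537 in WT and 1.17, 1.39 and 0.717 in KO, and the genotypes overlapped. Divided by the summed C1q chains it was 0.731, 0.591 and 0.510 in WT and 0.920, 1.33 and 0.736 in KO. By that measure KO 6 lay barely above WT 1. Within the 3 pairs by header number, which are not known to be matched samples, KO was the higher library in both ratios. Other cells also carry class II genes: summed dendritic cell markers were 2.12 to 3.20 FPKM in WT liver and 2.79 to 3.66 in KO, and summed B cell markers 0.840 to 1.78 and 0.898 to 1.52. None of the 6 dendritic or 4 B cell markers was without a read in either genotype, and their part in the class II values was not tested.

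The Kupffer genes of liver differed far more between libraries than between genotypes. Clec4f had a log2 difference of 0.12 ± 0.27 between KO and WT, with a fold interval from 0.699 to 1.69. Cd5l in KO stood at 40.2, 64.5 and 75.6 FPKM, within the WT range of 32.1 to 93.1, with a difference of 0.13 ± 0.40. Timd4 had the largest difference of the group, 0.30 ± 0.28, from 1.94, 2.98 and 4.05 FPKM in WT and 2.78, 3.8 and 4.27 in KO. Marco varied most, at 1.92, 3.8 and 11.4 FPKM in WT and 1.49, 7.61 and 6.14 in KO, so its highest library held 7.68 times its lowest. All 5 genes were lowest in WT 1 or KO 4. Intervals of this width do not show that the genotypes are equal.

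The same libraries were low in some of the shared macrophage genes. Adgre1 stood at 3.16, 7.80 and 10.4 FPKM in WT and at 3.53, 8.69 and 10.3 in KO, and Csf1r at 7.01, 13 and 17.5 in WT and 9.57, 15.1 and 15.7 in KO. WT 1 and KO 4 were the lowest of their genotype in both. Other genes of the group did not follow in KO 4: Lyz2 stood at 36.1, 65.1 and 77.8 FPKM in WT and 78, 56.1 and 69.5 in KO, and Cd14 was the highest of the KO libraries there, at 3.95. The summed shared macrophage genes were 66.1, 118 and 144 FPKM in WT and 121, 120 and 133 in KO, so that by the sum only WT 1 was low. Over the 27 members with a mean of at least 1 FPKM in liver, the median coefficient of variation across the 6 libraries was 28.0%, against 11.9% for all genes at that level. Stab2 and Oit3, markers of sinusoidal endothelium, were low in the same libraries, at 5.18 and 5.19 FPKM for Stab2 in WT 1 and KO 4 and 7.01 to 9.94 elsewhere. Oit3 stood at 8.49, 17.4 and 11.2 in WT and 5.25, 14.4 and 15.7 in KO. The part of these cells in the macrophage values was not tested.

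WT 1 decided the direction of the liver members as a group. With all libraries 29 of 32 members lay higher in KO, and without WT 1 the count was 11 of 32 with a median log2 difference of -0.10. Without WT 3 it was 32 of 32 with a median of 0.48, without KO 4 it was 31 with a median of 0.44, and without KO 6 it was 22 with a median of 0.09. The median of the antigen presentation group lay between 0.47 and 0.91 in all 6 such fits.

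**Figure D4:**
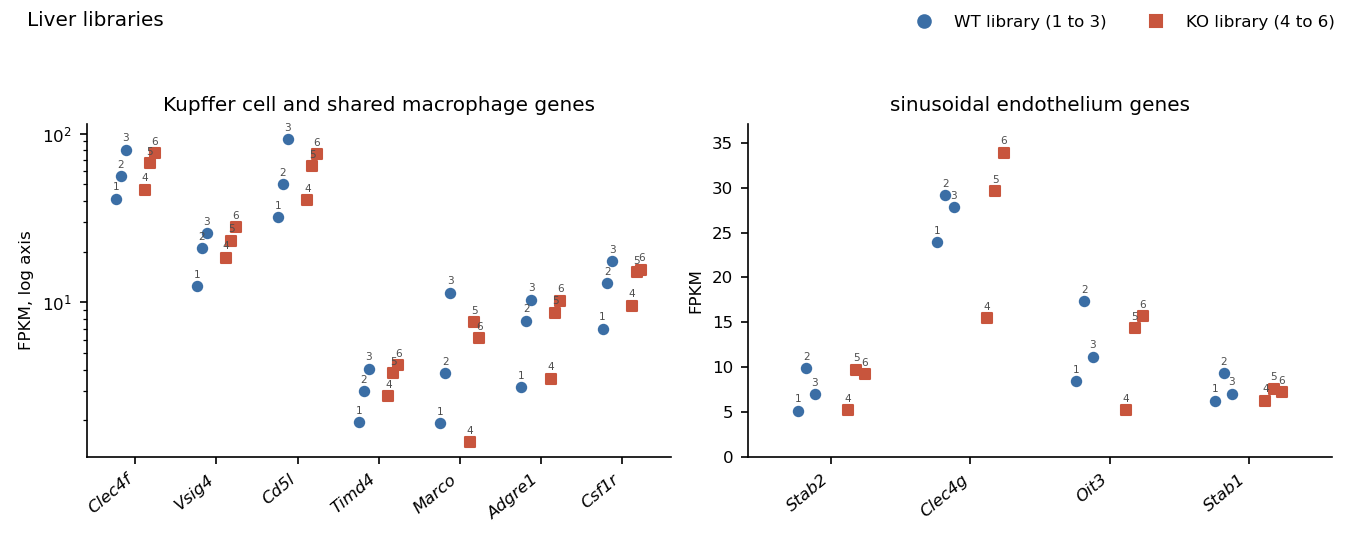
Levels of Kupffer and shared macrophage genes (left, FPKM on a log axis) and of sinusoidal endothelial genes (right, FPKM) in the 6 liver libraries, each point a numbered library. WT 1 and KO 4 lie low for Clec4f, Adgre1 and Stab2 alike, and WT and KO are intermingled.

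Of the remaining liver members, the microglia gene Trem2 and the leukocyte glycoprotein gene Cd52 had KO libraries above WT. Trem2 was scarce, at 0.229, 0.132 and 0.0950 FPKM in WT and 0.419, 0.365 and 0.25 in KO, a log2 difference of 0.83 ± 0.28 (limma unadjusted p = 0.0216, adjusted p = 1.00) that was 0.22 with a constant of 1 FPKM. Cd52 stood at 2.73, 4.85 and 6.84 FPKM in WT and 7.31, 7.12 and 7.16 in KO, a difference of 0.67 ± 0.30. Its KO libraries were close together and its WT libraries were spread. C1qa stood at 49.9, 70.5 and 102 FPKM in WT and 61.9, 72.1 and 84.5 in KO, a difference of 0.02 ± 0.25. Cd68, a lysosomal glycoprotein, had a difference of 0.44 ± 0.27 and Lyz2 of 0.24 ± 0.28, both with overlapping genotypes. Calprotectin, the S100a8 and S100a9 dimer of neutrophils, was erratic: S100a8 stood at 0.217, 4.14 and 1.55 FPKM in WT and 0.688, 2.42 and 2.78 in KO, a difference of 0.46 ± 0.94. S100a9 stood at 0.289, 2.88 and 1.41 FPKM in WT and 1.22, 2.97 and 3.70 in KO, and its difference of 1.04 ± 0.75 (limma unadjusted p = 0.205) was the largest of the liver members and had overlapping genotypes. The adaptors Tyrobp and Fcer1g, through which Fc receptors and Trem2 signal, differed by 0.07 ± 0.25 and -0.07 ± 0.28. The tested members not yet named for liver overlapped between genotypes, with differences from -0.04 for Cd14 to 0.70 for Siglech, which had only 53 reads in WT and 77 in KO.

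Other Kupffer and lineage genes in liver gave the same count. Of 8 further Kupffer genes 8 were tested and 0 passed, with 5 higher and 3 lower in KO. Complement C6 stood at 157, 105 and 110 FPKM in WT and 113, 110 and 75.3 in KO, and the nuclear receptor Nr1h3 at 71.4, 74.6 and 62.1 and 67.7, 64.9 and 59.4. Both overlapped between genotypes. Neither followed the 5 Kupffer genes above, which were lowest in WT 1 or KO 4: C6 was highest in WT 1, and Nr1h3 was lowest in KO 6. The 8 further genes summed to 274, 233 and 233 FPKM in WT, against 89.8, 134 and 215 for the 5 above. Whether C6 and Nr1h3 read Kupffer cells in these libraries was not tested. Of 9 ligands of CSF1R and regulators of the lineage, 9 were tested and 0 passed.

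In brain the microglia genes differed little between genotypes and between libraries. P2ry12 stood at 7.2, 7.09 and 6.89 FPKM in WT and 6.16, 7.55 and 7.09 in KO, a log2 difference of -0.03 ± 0.08 with a fold interval from 0.858 to 1.12. Tmem119 stood at 8.12, 8.10 and 7.45 in WT and 8.06, 8.00 and 8.28 in KO, a difference of 0.04 ± 0.06 with an interval from 0.935 to 1.13. Siglech differed by -0.10 ± 0.11, from 2.54, 2.24 and 2.70 FPKM in WT and 2.15, 2.23 and 2.58 in KO. Cx3cr1 was the microglia gene whose genotypes did not overlap, at 5.40, 5.95 and 6.17 FPKM in WT and 6.24, 6.36 and 6.32 in KO; the difference was 0.11 ± 0.07, and the KO libraries began just above WT 3. The 5 genes had a median coefficient of variation of 5.95% across the 6 libraries, against 7.22% for all brain genes of at least 1 FPKM.

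The class II genes of brain were low, and none passed the test. H2-Eb1 stood at 1.10, 1.56 and 1.39 FPKM in WT and 2.16, 1.96 and 1.72 in KO, a log2 difference of 0.51 ± 0.15 (unadjusted p = 0.0108, limma adjusted p = 0.885). Cd74 stood at 2.02, 2.77 and 3.30 in WT and 3.41, 3.41 and 3.71 in KO, a difference of 0.40 ± 0.16 (limma adjusted p = 1.00). H2-Ab1 stood at 1.43, 1.42 and 1.45 in WT and 1.79, 1.55 and 1.5 in KO, a difference of 0.15 ± 0.11. The genotypes did not overlap in these 3 genes. H2-Aa did overlap, at 0.788, 0.570 and 1.29 FPKM in WT and 1.03, 1.37 and 1.03 in KO. The median over the 5 antigen presentation genes was 0.39, and it was 0.21 without WT 1, 0.15 without WT 2 and 0.26 without KO 5. Of the 29 members tested in brain, 4 had KO entirely above WT and 1, the lipopolysaccharide receptor Cd14, entirely below, against 4.99% and 4.09% of all genes. Cd14 stood at 1.19, 1.08 and 1.33 FPKM in WT and 0.968, 0.959 and 1.06 in KO, a difference of -0.24 ± 0.12.

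The remaining brain members overlapped between genotypes, and the Kupffer genes had 0 to 4 reads each per genotype. Ctss stood at 24.0, 25.5 and 25.0 FPKM in WT and 23.2, 28.3 and 24.2 in KO, and C1qa at 30.0, 34.2 and 36.1 and 36.4, 36.1 and 32.7. Csf1r differed by 0.13 ± 0.10, Tyrobp by -0.03 ± 0.11 and Aif1 by -0.11 ± 0.17 on the log2 scale. Itgam, counted under its first gene ID only, stood at 0.946, 0.433 and 0.539 FPKM in WT and 0.757, 0.878 and 0.791 in KO, with WT 1 the highest library. S100a8 had a single low library, KO 6 at 0.107 FPKM, against 0.519 to 1.90 in the others. Of 10 further microglia genes 10 were tested and 0 passed. Not all of them followed the tissue split. Between WT brain and WT liver 8 passed as higher in brain and 2 as lower, against 48.6% and 35.3% of all genes. Between WT testis and WT brain 2 passed as higher in testis and 7 as lower, against 50.1% and 35.9%. Their sum was nonetheless highest in testis, with WT means of 162 FPKM there, 49.1 in brain and 20.1 in liver. Of the 13 class II pathway genes, 10 were tested in brain and 0 passed. Il34, the neuronal ligand of CSF1R, stood at 17.5, 15.8 and 18.8 FPKM in WT and 16.8, 15.7 and 16.4 in KO.

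In testis the genotypes overlapped in Aif1 and in most macrophage genes, while Cd52 stood apart. Aif1 in KO stood at 179, 147 and 155 FPKM, a log2 difference of 0.00 ± 0.11 with a fold interval from 0.842 to 1.19. H2-Aa stood at 3.09, 2.44 and 4.50 FPKM in WT and 2.99, 4.09 and 2.77 in KO, a difference of -0.00 ± 0.25. Cd74 stood at 8.44, 6.44 and 14.4 in WT and 8.99, 13 and 7.01 in KO, and its difference was 0.02 ± 0.32. For the class II genes WT 3 and KO 5 were the high libraries of their genotype. C1qa stood at 10.2, 8.17 and 22.8 FPKM in WT and 10.9, 11.4 and 12.1 in KO, with WT 3 far above the rest. Csf1r differed by 0.04 ± 0.19 and Lyz2 by -0.03 ± 0.20, and WT 3 was again the highest library in both.

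Cd52 encodes a small glycoprotein on lymphocytes and macrophages that is also made by the epithelium of the epididymis, the duct joined to the testis (chromosome 4, 134082448 to 134095082, overlapping Crybg2). In testis it stood at 1.86, 8.63 and 121 FPKM in WT and at 0.409, 0.770 and 0.717 in KO. The WT libraries held 3824 reads in all and the KO libraries 55, all KO libraries lay below WT, and WT 3 alone held most of the reads. The log2 difference was -4.16 ± 1.31 (unadjusted p = 0.0150, limma adjusted p = 0.871), and it ran from -5.51 without WT 1 to -2.54 without WT 3. Genes of the epididymis were high in the same libraries: Crisp1, a secreted protein of that duct, stood at 2.09, 19.2 and 133 FPKM in WT and 0.0312, 0.140 and 0.143 in KO. Adam7 stood at 0.0865, 1.47 and 8.20 FPKM in WT and had no read in KO. The 10 epididymis genes, listed after the values were seen, summed to 5.94 to 144 FPKM in WT and 1.69 to 4.03 in KO, and Adam7 and Spint4 had no read in KO. Haemoglobin RNA was high in WT 3 as well, at 75.7 FPKM for Hbb-bs against 8.45 to 16.5 in the other 5 libraries. The part of these tissues in Cd52 was not tested.

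**Figure D5:**
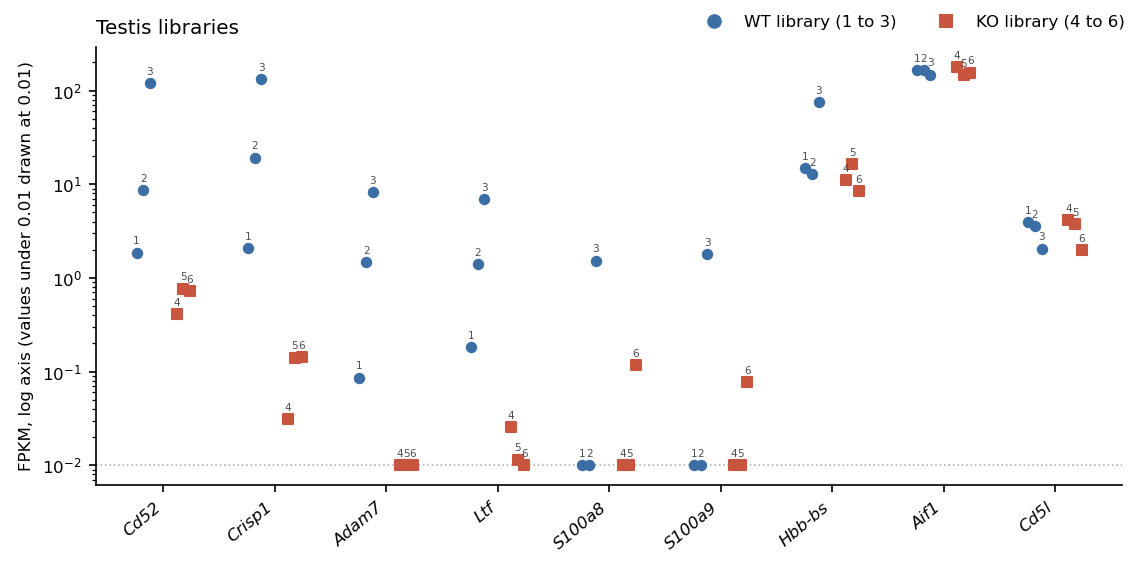
Cd52, calprotectin, Aif1 and Cd5l beside epididymis genes, Ltf and Hbb-bs in the 6 testis libraries, in FPKM on a log axis with values under 0.01 drawn at 0.01, each point a numbered library. Cd52 and Crisp1 are highest in WT 3, at 121 and 133 FPKM, and lower in every KO library than in any WT library, while Aif1 lies at 147 to 179.

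WT 3 also bore on the direction of the other testis members. Of 29 tested, 15 lay higher in KO and 14 lower with all libraries, and without WT 3 the count was 23 higher with a median log2 difference of 0.21. P2ry12 and Adgre1 were the 2 members with KO entirely above WT, and Cd52 the 1 entirely below, against 7.57% and 4.32% of all genes. P2ry12 stood at 0.278, 0.259 and 0.402 FPKM in WT and 0.468, 0.499 and 0.446 in KO, a difference of 0.48 ± 0.19 (limma unadjusted p = 0.0375, adjusted p = 0.871). Adgre1 stood at 1.31, 1.65 and 1.35 in WT and 1.73, 1.81 and 2.11 in KO, a difference of 0.37 ± 0.16 (limma unadjusted p = 0.0491, adjusted p = 0.871). The Kupffer gene Cd5l stood at 3.92, 3.58 and 2.05 FPKM in WT and 4.12, 3.77 and 1.99 in KO, so the third library of each genotype was the low one. S100a8 and S100a9 had no read in WT 1, WT 2, KO 4 and KO 5 and stood at 1.53 and 1.80 FPKM in WT 3. Of 6 further genes of border macrophages, which line vessels and membranes, 6 were tested in testis and 0 passed. The mannose receptor Mrc1 stood at 6.13, 5.63 and 5.35 FPKM in WT testis and 5.34, 6.83 and 5.54 in KO testis. In brain the same 6 were tested and 0 passed, with 1 higher and 5 lower in KO. Of all 17922 genes tested in brain, 9555 lay higher in KO.

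Whether the KO effect differed between tissues was tested directly, in a fit over the 12 libraries of each pair of tissues. No member passed in any pair: 0 of 27 between brain and liver, where 0.0% of all genes passed, 0 of 27 between testis and liver, where 0.0457% passed, and 0 of 26 between testis and brain, where 0.0626% passed. Without adjustment, a limma p under 0.05 was reached by 2, 3 and 2 members in the same order, against 4.84%, 4.61% and 4.56% of all genes. H2-Ab1 had an effect smaller in testis than in liver by 0.90 ± 0.30 on the log2 scale (difference -0.90, limma adjusted p = 0.874), and H2-Aa by 0.88 ± 0.37 (difference -0.88, limma adjusted p = 0.987). Between brain and liver the difference for H2-Ab1 was -0.68 ± 0.28. The class II shift in liver was thus not separated from the values in brain or testis by this test. Among the members Cd52 had the largest difference, as its KO libraries lay above WT in liver and below WT in testis.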

How the data were processed

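The authors deposited FPKM per gene and library for 52636 genes. Per the submitters' processing notes, HISAT2 2.0.5, featureCounts 1.5.0-p3 and DESeq2 1.16.1 were used with mm10. Multiplying each deposited FPKM by gene length gave whole reads, up to a constant for each library (tolerance 0.01 reads), so reads were recovered. The library sizes behind the FPKM equalled median-of-ratios size factors over 18 libraries and 14876 genes; the library total over that size was 1.44 to 1.52 for liver, 0.806 to 0.835 for brain, and for testis 0.823 to 0.969.

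Genes reaching 10 reads in 3 or more libraries were tested with limma 3.58.1 (R 4.3.3; trend) on log2(FPKM + 0.1), within each tissue, between WT tissues, and as differences of KO effects over 12 libraries. Benjamini-Hochberg adjustment ran over all genes tested, with a threshold of 0.05. The deposited unit was FPKM, so a count test was not the main test. Tables and figures used Python 3.11.15, pandas 2.3.3 and matplotlib 3.10.9. The fitting code was tested on simulated data.

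The alternatives were constants of 1 and 0.01 FPKM, no filter, scaling by total, voom, leaving out each library, 1 fit over 18 libraries, KO in place of WT tissues, and replicate blocks. Blocks by header number were added after seeing the data. The headers number KO libraries 1 to 3. In liver same-numbered libraries deviated together (correlations 0.162 to 0.354, others -0.343 to 0.06), which was not so in brain or testis. What these numbers mark is not stated. The pairing in liver thus rests on these same data and is not a known part of the design.

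Members and lists were chosen with earlier results of these data known. Named in full were members passing a test and otherwise, per group and tissue, those with the highest level or largest difference. From other lists, the 2 most abundant genes were named at most; Stab2, Oit3, Ciita, H2-DMb1 and the epididymis and haemoglobin genes were chosen after their values were seen.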

Additional observations from a re-analysis of the deposited data

Results flagged for a closer look

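Cd52 was the member whose KO libraries lay on opposite sides of WT in different tissues. In liver its KO libraries, at 7.12 to 7.31 FPKM, all exceeded the WT libraries, at 2.73 to 6.84, and in testis its KO libraries, at 0.409 to 0.770, all lay below the WT libraries, at 1.86 to 121. The KO effect in testis minus that in liver was -4.83 ± 1.48 on the log2 scale, with an unadjusted p of 0.00686 and a limma adjusted p of 0.785. The epididymis genes were high in the same testis libraries as Cd52 and near 0 in liver, where they summed to 0.185 to 0.978 FPKM.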

How the results depend on the processing

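Members called between KO and WT numbered 0 in all alternatives of every tissue and of every difference of effects; the counts over all genes were less stable. In liver 3 genes passed, against 87 in 1 fit over all 18 libraries and 0 to 5 with a library left out. In brain 15 passed, against 27 in the 18-library fit, 9 with the replicate block by header number and 3 to 11 with a library left out. In testis 1 passed, against 36 in the 18-library fit, 0 with no filter, 2 with voom and 0 to 3 with a library left out. For the difference of effects between brain and liver 0 passed, against 1 with a constant of 1 FPKM, 2 with 0.01 and 17 with no filter. Between testis and liver 6 passed, against 3 with 0.01 and 32 with no filter, and between testis and brain 10, against 31 with no filter. Libraries with the same label number in different tissues had correlations of deviations of -0.018 to 0.137, against -0.0999 to 0.0339 for different numbers. The main tests did not use this number. With it as a replicate block, the only changed member calls were Cd68 between WT brain and liver and S100a9 between WT testis and brain, both gained.

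Between WT tissues, Ctss turned from -0.00 to 0.83 between brain and liver when scaled by totals. With KO libraries in place of WT, Cd52 turned from 1.47 to -3.36 between testis and liver and from 4.21 to -0.41 between testis and brain; the cause was not tested. Genes called between WT testis and WT liver ranged from 11068 to 18153 with a library left out, and members higher there from 1 to 2; fewer genes could be tested with 2 testis libraries, Cx3cr1 among those lost. Depth limits scarce members such as Trem2 in liver, with 32 reads in WT and 70 in KO.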

Other observations

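Genes that mark activated microglia and macrophages, none of them members of the lists above, also leaned towards KO in liver. Of 8 such genes 6 were tested there, 0 passed in limma and 6 lay higher in KO, with a median log2 difference of 0.62 against 0.00 for all genes. Among all 14124 genes tested in liver, 7089 lay higher in KO. The direction of this list without WT 1 is not given here. Clec7a, the receptor for fungal beta-glucan, stood at 1.17, 1.19 and 1.88 FPKM in WT liver and 2.5, 2.47 and 2.46 in KO, a difference of 0.80 ± 0.20 (unadjusted p = 0.00563, limma adjusted p = 0.724). Itgax, the integrin chain CD11c of dendritic cells and some macrophages, stood at 0.0942, 0.163 and 0.0978 FPKM in WT and 0.199, 0.255 and 0.241 in KO, a difference of 0.61 ± 0.23. Both had KO libraries above all WT libraries, and both were named after their values were seen. The levels of Itgax lay near the constant of 0.1 FPKM added before taking logs, so the size of its difference depends on that constant. Apoe, the most abundant of the 8, overlapped between genotypes. In brain 5 were tested, 0 passed and 1 lay higher.

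Of 5 subunits of the phagocyte NADPH oxidase beside Cybb, 5 were tested in liver and 0 passed. All 5 lay higher in KO, with a median of 0.27, against 7089 of all 14124 genes tested. Cyba, the partner chain of Cybb, stood at 7.11, 9.44 and 11.1 FPKM in WT and 12, 12 and 11.7 in KO, above WT in all 3 KO libraries. WT 1 was its lowest library. The 5 subunits summed to 10.9, 13.9 and 18.1 FPKM in WT and 17.5, 17.9 and 17.8 in KO, and the genotypes overlapped. Their direction without WT 1 is not given here. Of 11 genes of Fc receptors and their kinases, 11 were tested in liver and 0 passed, with 6 higher and 5 lower. Id3, a regulator of Kupffer cell identity and named after its values were seen, lay the other way, at 17, 18.1 and 19.3 FPKM in WT liver and 10.8, 15 and 15.4 in KO, a difference of -0.41 ± 0.15 (unadjusted p = 0.0271, limma adjusted p = 1.00).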
